A study of Mus musculus with 19 samples.

Results

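Egr1, Egr2, Egr3, Egr4, Nr4a1, Nr4a2, Nr4a3, Arc, Npas4 and Ier2 are activity genes, whose transcripts appear within minutes of a stimulus. These 10 genes were chosen by name, and all 10 were found among the 21749 genes of the deposited table. Their levels were followed in messenger RNA bound to tagged ribosomes of mouse cortical astrocytes (translating ribosome affinity purification, TRAP, followed by RNA sequencing). All mice carried the transgene Tg(Aldh1l1-EGFP/Rpl10a)JD130Htz/J on a B6;FVB background, in which the Aldh1l1 promoter, active in astrocytes, drives an EGFP-tagged ribosomal protein L10a. The 19 libraries were 4 from males, 8 from females in metestrus, 3 from females in proestrus (labelled Pro-Day) and 4 from females in estrus. The female mice were taken at 09:00, and the labels give neither the hour for the males nor any age, and their treatment field holds only the 4 group names. Nor do they tie libraries to separate animals, and p-values therefore measure only how far libraries scatter, which may be technical.

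Immediate-early genes need no new protein to be switched on, since calcium and growth factor signals act on factors such as CREB and SRF that already sit at their promoters. The Egr genes encode zinc finger transcription factors, the Nr4a genes encode orphan nuclear receptors, and Npas4 encodes a bHLH-PAS transcription factor that responds to calcium entry in neurons. Arc encodes a synaptic protein that takes part in the removal of AMPA receptors from synapses, and Ier2 encodes a nuclear protein of the early growth response. In brain tissue these transcripts are best known as marks of recently active neurons, and several of them also respond in glia.

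The promoters of these genes are known for short motifs that bind the signal-dependent factors, and 4 are printed here because they carry them in different numbers. The windows run from 250 bases before to 50 bases after the start of the transcript, from RefSeq on GRCm38.p6, given 5′ to 3′ on the strand of the gene. Capitals mark the core of the cAMP response element, TGACG on either strand, and in Egr2 also the CArG box bound by SRF.
Egr2, chr10:67537619-67537918, plus strand: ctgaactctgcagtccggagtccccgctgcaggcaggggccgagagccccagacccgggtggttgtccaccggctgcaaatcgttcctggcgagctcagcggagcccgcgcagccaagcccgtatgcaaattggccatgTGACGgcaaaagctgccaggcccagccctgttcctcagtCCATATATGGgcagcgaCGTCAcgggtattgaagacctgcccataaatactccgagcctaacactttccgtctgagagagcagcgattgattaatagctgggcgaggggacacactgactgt
Nr4a1, chr15:101266596-101266895, plus strand: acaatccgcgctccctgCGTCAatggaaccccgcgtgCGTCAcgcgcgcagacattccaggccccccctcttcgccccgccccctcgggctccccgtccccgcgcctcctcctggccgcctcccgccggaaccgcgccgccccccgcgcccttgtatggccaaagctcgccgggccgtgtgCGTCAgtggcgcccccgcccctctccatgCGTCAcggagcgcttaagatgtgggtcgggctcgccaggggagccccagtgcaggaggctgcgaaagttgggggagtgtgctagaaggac
Nr4a2, chr2:57123954-57124253, minus strand: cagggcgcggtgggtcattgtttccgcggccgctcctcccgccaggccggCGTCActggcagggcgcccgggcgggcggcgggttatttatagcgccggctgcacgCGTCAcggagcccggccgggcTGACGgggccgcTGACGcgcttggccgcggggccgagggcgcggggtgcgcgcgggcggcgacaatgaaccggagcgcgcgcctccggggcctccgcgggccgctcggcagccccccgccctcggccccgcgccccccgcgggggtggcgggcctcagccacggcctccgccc
Npas4, chr19:4989922-4990221, minus strand: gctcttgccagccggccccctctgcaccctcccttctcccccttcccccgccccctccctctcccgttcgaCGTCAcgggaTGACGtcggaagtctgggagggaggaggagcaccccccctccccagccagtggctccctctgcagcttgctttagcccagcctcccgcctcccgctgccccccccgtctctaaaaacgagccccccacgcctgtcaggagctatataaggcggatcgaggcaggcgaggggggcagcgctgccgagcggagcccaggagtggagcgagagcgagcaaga

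The Nr4a1 and Nr4a2 windows each held 4 copies of the core, and the Npas4 window and the Egr2 window printed here held 2 copies each. The Egr2 window is that of 1 of 5 starts listed for the gene. The core was in 3 of those 5 windows, which overlap and share the same 2 copies. The CArG box was in 4 of the 5, and the 3 overlapping windows share the same box. Of the other windows scanned from the RefSeq table, that of Nr4a3 held 4 copies and that of Egr4 held 2. The core was present in 20.8% of the 32851 promoter windows of this length in the table, and the CArG box in 1.63%. These shares count windows with 1 copy or more, and give no background for the number of copies. They are not matched for GC content, which ran from 56% in 1 of the Egr2 windows to 81.7% in that of Nr4a2. The full palindrome TGACGTCA, read on both strands and counted as overlapping the core, was in none of the 10 windows scanned for these genes. It was in 1.79% of all windows. The Nr4a1 window also held a site for the EGR proteins themselves (GCGGGGGCG or GCGTGGGCG on either strand), which was found in 3.47% of all windows. A match of letters says nothing of binding in these animals. No window was scanned or printed for Egr1, Egr3, Arc and Ier2.

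Levels are log2 values as deposited, from -5.12 to 18.999 over the whole table, and the sequencing depth behind them is unknown. The labels name batches 2, 3 and 4. Batch 4 held all 4 male and 5 of the metestrus libraries, and batches 2 and 3 held the other metestrus libraries and all of proestrus and estrus. No batch held both males and proestrus or estrus, and between those groups levels are given side by side without a test. After the 4 groups were fitted the values spanned 11 directions in place of 15, so 4 directions of variation had been taken out of them before deposit. The defining astrocyte markers were high in every group, with a list mean of 14.67 in males, 14.41 in metestrus, 14.34 in proestrus and 14.34 in estrus. Neuronal markers were also present, at 12.75 in males, 12.69 in metestrus, 12.76 in proestrus and 12.78 in estrus. Whether an activity transcript came from astrocytes or from neuronal RNA carried through the pulldown was not tested, and in such bulk samples fewer cells of a type and less RNA per cell cannot be told apart. The Y-linked gene Ddx3y was at 7.47 to 8.47 in the libraries labelled male and at -1.91 to 4.03 in those labelled female, with no overlap.

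All 10 genes had their highest group mean in males, an order shared by 34.8% of the 20644 genes tested. The lowest mean was in estrus for 7 of them, in metestrus for Npas4 and Ier2, and in proestrus for Nr4a3, against 30%, 13.2% and 34.8% of the genes tested with their lowest mean in those groups. Libraries of the same group differed widely, and no difference between groups passed an adjusted p of 0.05 for any of the 10.

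Egr1, the most studied of the early growth response factors, stood at 13.34, 12.01, 12.72 and 11.72 in males 1 to 4, against a lowest value of 10.39, a median of 11.50 and a highest of 12.26 in metestrus. It was at 11.46, 10.86 and 11.69 in proestrus and at 11.44, 10.47, 10.64 and 11.38 in estrus. The libraries Males 1 and Males 3 lay above every female library, while the other 2 male libraries lay within the metestrus range. The Egr1 means stood in the descending order males (12.45 ± 0.73, SD, n = 4), metestrus (11.50 ± 0.57, n = 8), proestrus (11.34 ± 0.43, n = 3) and estrus (10.98 ± 0.50, n = 4). Of the neighbours in this order, males and metestrus differed by more than the SD of either, and the female groups did not.

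Egr2, known for its part in myelination by Schwann cells, was at 9.57, 6.41, 8.54 and 6.57 in males and at 4.95 to 8.62 in metestrus, with a median of 6.43. It was at 5.51, 7.20 and 7.58 in proestrus and at 5.31, 5.05, 5.38 and 6.77 in estrus. The male values formed a high and a low pair, and Males 3 was just below the highest metestrus library. The group means were 7.77 ± 1.54 in males, 6.42 ± 1.16 in metestrus, 6.77 ± 1.10 in proestrus and 5.63 ± 0.78 in estrus, and no neighbours in the order differed beyond their spread.

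Egr3, which is induced with Egr1 and acts on many of the same sites, was at 11.91, 10.68, 11.37 and 11.25 in males, against 9.97 to 10.76 in metestrus with a median of 10.45. It was at 10.27, 9.62 and 10.28 in proestrus and at 10.34, 9.42, 8.94 and 10.11 in estrus. This gene had the tightest metestrus values of the Egr family, and 3 of the 4 male libraries lay above all female ones. The means were 11.30 ± 0.50 in males, 10.47 ± 0.25 in metestrus, 10.05 ± 0.38 in proestrus and 9.70 ± 0.64 in estrus. Males over metestrus and metestrus over proestrus were steps larger than the SD of either group, and proestrus over estrus was not.

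Egr4, the fourth early growth response factor, was at 10.69, 9.98, 10.20 and 8.48 in males and at 8.44 to 9.54 in metestrus, with a median of 9.00. It was at 9.31, 8.80 and 9.05 in proestrus and at 8.56, 7.25, 7.40 and 9.03 in estrus. Males 4 lay at the low end of the metestrus range, and Estrus 2 and Estrus 3 lay below every other library. The means were 9.84 ± 0.95 in males, 9.05 ± 0.36 in metestrus, 9.05 ± 0.26 in proestrus and 8.06 ± 0.87 in estrus, and of the neighbours metestrus and estrus differed by more than the SD of either.

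Nr4a1 (Nur77), the best known of the inducible orphan receptors, was at 12.88, 10.68, 11.42 and 9.59 in males and at 8.90 to 10.82 in metestrus, with a median of 9.92. It was at 9.22, 9.44 and 10.30 in proestrus and at 9.92, 8.56, 9.80 and 10.31 in estrus. Males 1 was more than 1 log2 unit above every other library, and Males 4 lay inside the female range. The 3 female means lay between 9.65 and 9.80, and the male mean of 11.14 ± 1.38 exceeded its neighbour in the order, metestrus at 9.80 ± 0.64, by less than the male SD.

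Nr4a2 (Nurr1), which dopamine neurons need to form, was at 9.93, 9.74, 9.63 and 9.56 in males and at 9.25 to 9.75 in metestrus, with a median of 9.56. It was at 9.73, 9.43 and 9.23 in proestrus and at 9.29, 9.34, 8.69 and 9.55 in estrus. Nr4a2 was the steadiest of the 10, with 2.37-fold between its highest and its lowest library, and its means of 9.71 ± 0.16 in males and 9.53 ± 0.17 in metestrus were still further apart than the SD of either. Nr4a3 (NOR1), the third receptor of the family, was at 9.26, 7.60, 7.03 and 6.99 in males and at 6.68 to 7.83 in metestrus, with a median of 7.28. It was at 5.95, 7.61 and 7.47 in proestrus and at 6.23, 6.95, 8.06 and 7.08 in estrus. Apart from Males 1, the male values of Nr4a3 lay within those of metestrus, and its group means of 7.72 in males, 7.23 in metestrus, 7.01 in proestrus and 7.08 in estrus did not differ beyond their spread.

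Arc was at 13.17, 11.38, 12.68 and 11.05 in males and at 9.05 to 11.91 in metestrus, with a median of 10.68. It was at 10.08, 10.50 and 10.78 in proestrus and at 10.49, 8.70, 9.99 and 10.76 in estrus. Males 1 and Males 3 lay above all females, and Males 2 and Males 4 lay below the highest metestrus library. The means were 12.07 ± 1.02 in males, 10.58 ± 0.87 in metestrus, 10.45 ± 0.35 in proestrus and 9.98 ± 0.91 in estrus, and males and metestrus differed by more than the SD of either.

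Npas4 was at 8.66, 6.86, 8.30 and 5.97 in males and at 3.71 to 7.92 in metestrus, with a median of 6.18. It was at 7.19, 6.87 and 6.36 in proestrus and at 7.87, 5.41, 7.17 and 7.31 in estrus. Its lowest value, in Metestrus 8, was far below the others, and the groups overlapped widely, with means of 7.45 ± 1.25 in males, 6.39 ± 1.33 in metestrus, 6.81 ± 0.42 in proestrus and 6.94 ± 1.06 in estrus. Ier2 was at 9.49, 8.69, 9.73 and 8.84 in males and at 7.19 to 9.17 in metestrus, with a median of 8.47. It was at 8.47, 9.25 and 7.87 in proestrus and at 8.76, 8.53, 9.05 and 8.58 in estrus. Within batch 4 the Ier2 values did not overlap, with 8.69 to 9.73 in males and 8.02 to 8.63 in metestrus, while the neighbouring group means of Ier2 did not differ beyond their spread.

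**Figure D1:**
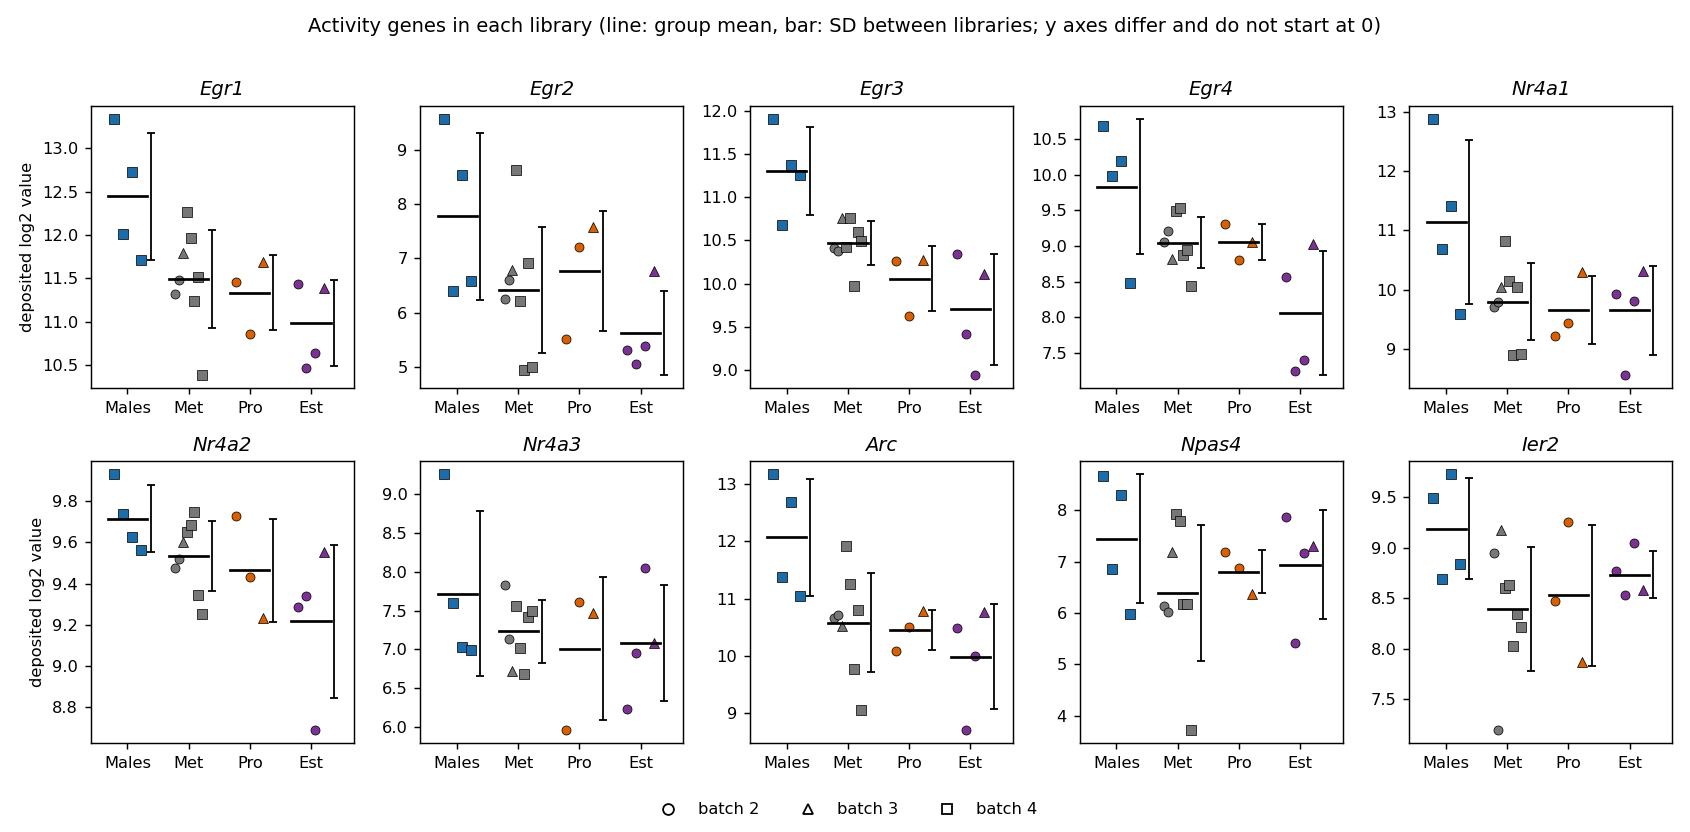
Deposited log2 value of each of the 10 genes in males, metestrus, proestrus and estrus, with 1 point per library (marker shape gives the batch), a line at the group mean and a bar of 1 SD. Males hold the highest mean in each panel, at 12.07 for Arc against 10.58 in metestrus, and Nr4a2 shows the least spread.

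The span between the highest and the lowest library was 31.0-fold for Npas4, 24.5-fold for Egr2, 22.2-fold for Arc, 20.05-fold for Nr4a1 and 10.8-fold for Egr4. It was 9.90-fold for Nr4a3, 7.81-fold for Egr3, 7.76-fold for Egr1 and 5.79-fold for Ier2. The SD within groups was above the 90th percentile of genes of like level (a mean within 1 log2 unit) for 9 of the 10. Arc and Nr4a1 were near the top of that ranking, at 99.97 and 99.96, and Nr4a2 was in its lower part, at 19.5.

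The same libraries were high or low for most of the genes. Males 1 was the highest of the 19 libraries for 9 of the 10, and was the highest for 7.19% of all genes tested. Ier2 was the exception, highest in Males 3, which was among the highest 2 libraries for 7 of the 10. Above the median of the 19 libraries were all 10 genes in Males 1, 9 in Males 3, 9 in Metestrus 4 and 8 in Males 2, against 0 in Estrus 2. Estrus 2 and Metestrus 8 were each among the lowest 3 libraries for 7 of the 10. In Males 1 the mean of the astrocyte markers was the highest of all libraries, and that of the neuronal markers ranked 9 of 19. By the log2 of their summed values the neuronal markers were at 17.10 in Males 1 and 16.95 in Males 3, above every other library except Estrus 2 at 17.33. In Estrus 2, where the activity genes were low, the neuronal markers ranked 1 of 19 by the mean and by the sum. Their summed values ran from 16.77 to 17.10 in males, 16.58 to 16.92 in metestrus, 16.72 to 16.84 in proestrus and 16.59 to 17.33 in estrus. The part of cell makeup in these differences was not tested.

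**Figure D2:**
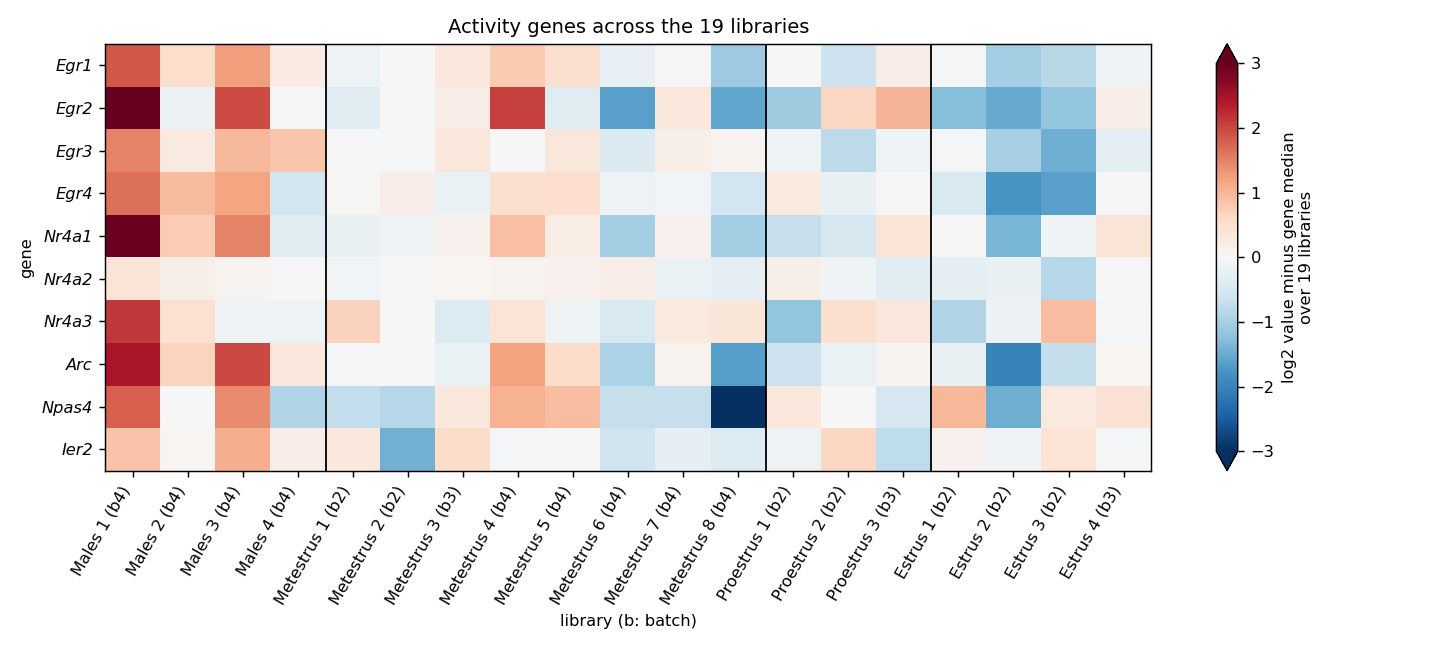
Log2 value of each gene minus its median over the 19 libraries, with genes down the page and libraries across, males first and then metestrus, proestrus and estrus. Males 1 and Males 3 are high for nearly all genes, while all 10 genes lie at or below their medians in Estrus 2.

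The males were compared with females in metestrus to ask whether activity genes differ between the sexes. The limma fit of group and batch gave a positive difference for all 10 genes, with a median of 0.92 log2 units, whereas the median over all tested genes was 0.04 and 55.3% of them were positive. No gene of the 10 passed the adjusted threshold in limma, which 0.0242% of all genes passed, and 6 of the 10 had an unadjusted p under 0.05, against 5.33% of all genes. All 6 were higher in males, a direction that 3.45% of all genes took at that p. With the batch in the fit this comparison equals that of the libraries of batch 4, which held 4 male and 5 metestrus libraries.

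Arc differed the most, by 1.51 ± 0.54 log2 units (SE, 95% interval 0.38 to 2.65, 2.85-fold), with an adjusted p of 0.856 in limma. Egr2 was 2.69-fold and Nr4a1 2.59-fold higher by the fit, at 1.43 ± 0.66 and 1.37 ± 0.50 log2 units, with adjusted p of 0.917 and 0.856. Egr1 differed by 0.97 ± 0.32 log2 units (95% interval 0.30 to 1.64) and Egr3 by 0.86 ± 0.25, the most precise of the 6, with adjusted p of 0.804 and 0.759. Ier2 was the last of the 6, at 0.82 ± 0.34 log2 units with an adjusted p of 0.868. It was also the 1 gene of the 10 whose male and metestrus ranges did not overlap within batch 4, as was so for 2.65% of all genes. Egr4 differed by 0.77 ± 0.37, Npas4 by 1.09 ± 0.69, Nr4a3 by 0.49 ± 0.45 and Nr4a2 by 0.18 ± 0.18 log2 units. The interval for Nr4a2, from -0.20 to 0.55, was the narrowest around 0.

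The differences were smaller without the library Males 1. Without Males 1 the median over the 10 genes was 0.68 log2 units, 9 of 10 were positive (55% of all genes) and 3 had an unadjusted p under 0.05 (3.9% of all genes). Nr4a3 was then at -0.03. Egr1 was at 0.68, Egr2 at 0.83, Egr3 at 0.65 and Nr4a1 at 0.79 log2 units without Males 1. Npas4 depended on Metestrus 8, without which its difference was 0.43, and was at 1.59 without Males 4. With the removed directions counted, 5 of the 10 had an unadjusted p under 0.05, against 3.58% of all genes. The male libraries had endothelial and mural markers at a list mean of 6.81 to 8.35, against 6.61 to 7.59 in metestrus. Astrocyte markers were at a list mean of 14.67 ± 0.10 (SD) in males, against 14.41 ± 0.17 in metestrus, with ranges of 14.56 to 14.78 and 14.24 to 14.70. The part of either list in the result was not tested.

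**Figure D3:**
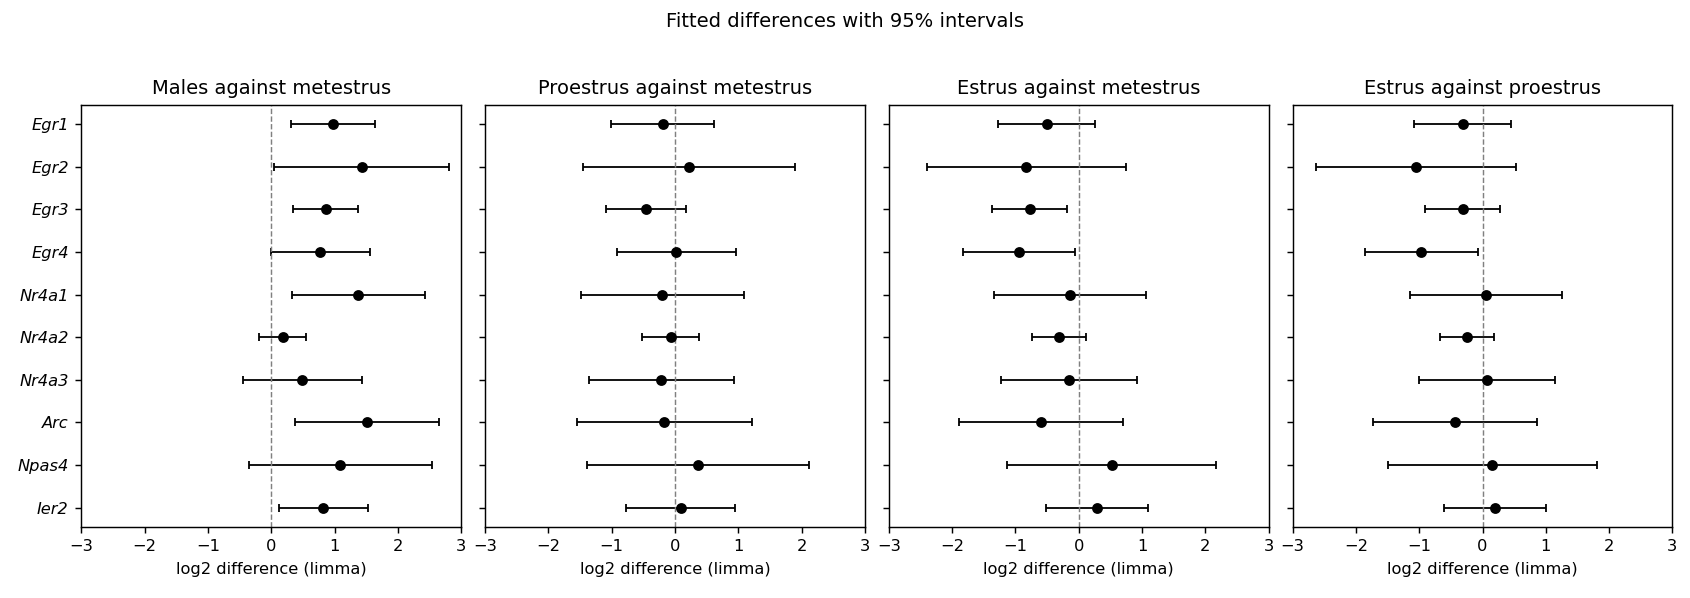
Fitted log2 difference of each gene with its 95% interval, in panels for males against metestrus, proestrus against metestrus, estrus against metestrus and estrus against proestrus. All 10 points lie above 0 in the panel of males, up to 1.51 for Arc, while Egr3 and Egr4 lie below 0 in estrus against metestrus.

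Proestrus, the day on which estrogen peaks, was compared with metestrus. With the batch in the fit, differences between cycle stages rest on batches 2 and 3, which held 3 metestrus libraries. The metestrus libraries of batch 4 add only to the estimate of the spread. None of the 10 genes passed the adjusted threshold in limma, against 0.988% of all genes, and 0 had an unadjusted p under 0.05, against 13.1% of all genes. The fitted difference was positive for 4 (41.9% of all genes) and negative for 6, with a median of -0.12 log2 units that was close to that of all genes, -0.09. Egr3 had the lowest p, at -0.46 ± 0.30 log2 units with an adjusted p of 0.551. Its values did not overlap within the shared batches, as was so for 17% of all genes. Npas4 had the highest difference, at 0.36 log2 units.

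Estrus was compared with metestrus, and the 2 genes with an unadjusted p under 0.05 were Egr3 and Egr4, both lower in estrus. That is 2 of 10, against 11.3% of all genes in either direction and 7.18% in this one, and 0 of the 10 passed the adjusted threshold in limma, against 0.0872% of all genes. Egr3 differed by -0.78 ± 0.28 log2 units (95% interval -1.37 to -0.19) with an adjusted p of 0.307. Its estrus and metestrus values did not overlap within batches 2 and 3, as held for 7.39% of all genes. Egr4 differed by -0.94 ± 0.43 log2 units with an adjusted p of 0.413. Of the others, Egr1 was at -0.51, Egr2 at -0.83, Arc at -0.60 and Nr4a2 at -0.31 log2 units. Nr4a1 was at -0.14, Nr4a3 at -0.15, Ier2 at 0.29 and Npas4 at 0.52 log2 units. Thus 8 of 10 were negative, with a median of -0.41 log2 units, against -0.07 for all genes, of which 43.5% were positive. Endothelial and mural markers were lowest in estrus, at a list mean of 5.50 to 6.81, against 6.61 to 7.59 in metestrus, and their summed level did not overlap, at 9.24 to 9.54 in estrus and 9.78 to 10.28 in metestrus. Oligodendrocyte markers were higher in estrus without overlap, at a list mean of 11.23 to 11.68, against 10.89 to 11.13 in metestrus. The part of either list in the Egr3 and Egr4 values was not tested.

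Estrus was also compared with proestrus, which uses the same estrus and proestrus libraries as the comparisons above. Egr4 alone of the 10 had an unadjusted p under 0.05, against 14.5% of all genes, and none passed the adjusted threshold in limma, against 0.94% of all genes. Egr4 was lower by the fit, at -0.96 ± 0.43 log2 units (95% interval -1.85 to -0.08) with an adjusted p of 0.293. Egr2 was at -1.05 ± 0.76 log2 units, a similar size with a wider error. The median over the 10 was -0.28 log2 units, against 0.02 for all genes, and 4 of the 10 were positive, against 52% of all genes.

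Across the 19 libraries, 44 of the 45 pairs among the 10 genes were positively correlated, and 27 had a Pearson r above 0.5. These correlations are descriptions over libraries that share groups, batches and the removal of 4 directions, and have no p. Egr1 and Arc were the most alike, with r = 0.94 over the 19 libraries and 0.87 over the 15 female libraries. Nr4a1 and Arc had r = 0.93 over all libraries and 0.91 over the female ones, so this pair was as close within females. The median r of a gene with the other 9 was 0.82 for Egr1, 0.76 for Egr4, 0.75 for Arc and 0.73 for Nr4a1. It was 0.41 for Nr4a2, 0.37 for Ier2 and 0.29 for Nr4a3, which had a slightly negative r of -0.05 with Nr4a2. The median over all pairs was 0.59, and it was 0.45 without Males 1 and 0.36 in the female libraries.

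**Figure D4:**
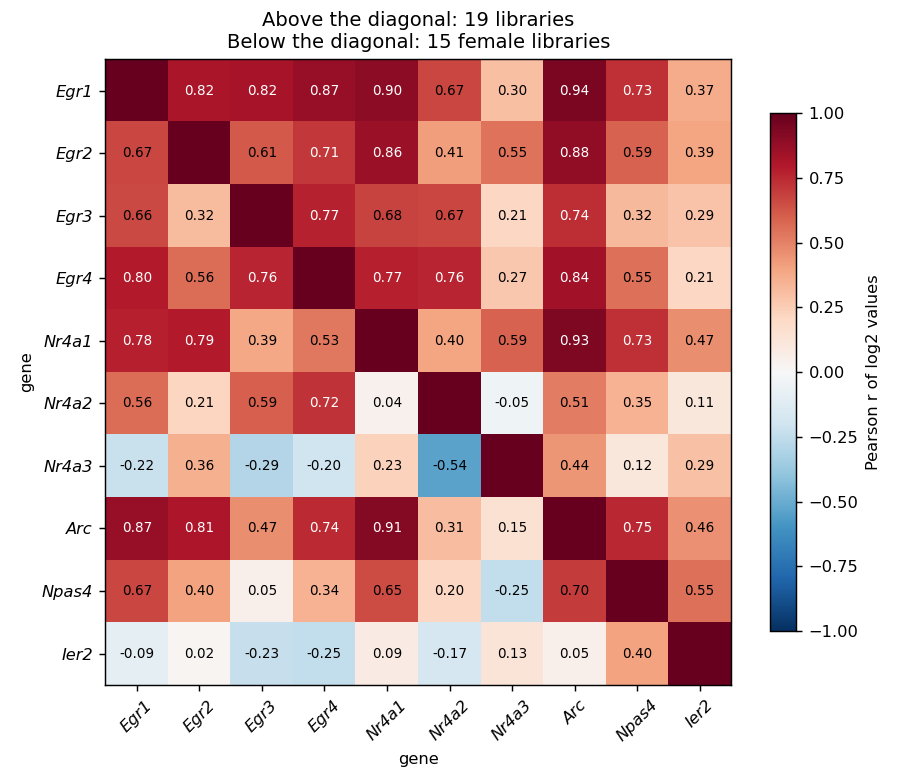
Pearson r between each pair of the 10 genes, above the diagonal over the 19 libraries and below it over the 15 female libraries. Over the 19 libraries Egr1, Egr2, Arc, Nr4a1 and Egr4 form a block of high r, from 0.71 for Egr2 and Egr4 to 0.94 for Egr1 and Arc. Nr4a2, Nr4a3 and Ier2 have the palest rows.

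The genes most like the mean of the 10 were ranked by their deviations from the means of group and batch, over 16 libraries that share a group and batch with another library. Of all genes 0.465% had an r above 0.7 with that mean. The first 5 outside the 10 were Dusp1 (0.93), Xist (0.92), Arl4d (0.92), Fos (0.92) and Clspn (0.91). Dusp1 encodes a phosphatase that switches off MAP kinases, and Fos encodes a subunit of the AP-1 transcription factor. Xist, the RNA that silences an X chromosome in females, was at 0.04 to 5.11 in males, 7.77 to 9.82 in metestrus, 6.97 to 8.96 in proestrus and 4.51 to 7.55 in estrus. Over all 19 libraries the r of Xist with the activity genes was -0.16, while that of Fos was 0.87, so the place of Xist on this list rests on deviations within groups. Among these are deviations of male values that reach below the minimum for testing, 3.32. They ran from 0.04 in Males 4 and 2.04 in Males 2 to 5.11 in Males 1. Clspn, a gene of the DNA replication checkpoint, was near the minimum for testing, with a mean of 3.90.

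Fos itself was at 11.51 ± 1.13 in males (n = 4), 9.96 ± 0.71 in metestrus (n = 8), 9.42 ± 0.60 in proestrus (n = 3) and 10.10 ± 0.74 in estrus (n = 4). Its difference between males and metestrus was 1.61 ± 0.49 log2 units, with an adjusted p of 0.796 in limma. Among 32 other rapid primary response genes, Fos included, 30 were positive for males against metestrus, against 55.3% of all genes. An unadjusted p under 0.05 was found for 14, against 5.33% of all genes. None passed the adjusted threshold in limma, against 0.0242% of all genes. With the removed directions counted, 8 had an unadjusted p under 0.05, against 3.58% of all genes. The median of the 32 was 0.41 log2 units, against 0.92 for the 10 genes and 0.04 for all genes. Without Males 1, 26 of the 32 were positive (55% of all genes) and 2 had an unadjusted p under 0.05 (3.9% of all genes).

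The delayed activity genes, which include secreted factors and synaptic proteins, numbered 13. All 13 were positive for males against metestrus (55.3% of all genes), with a median of 0.45 log2 units. An unadjusted p under 0.05 was found for 6, against 5.33% of all genes. With the removed directions counted it was found for 4, against 3.58% of all genes. None of the 13 passed the adjusted threshold in limma, against 0.0242% of all genes. Inhba, a subunit of activin named here after its values were seen, was at 8.08 ± 0.53 in males, against 6.90 ± 0.19 in metestrus. Its difference of 1.20 ± 0.30 log2 units had an adjusted p of 0.603 in limma. Without Males 1, all 13 were still positive (55% of all genes), and 3 had an unadjusted p under 0.05 (3.9% of all genes). Of 23 regulators and partners, 19 were positive (55.3% of all genes) and 1 had an unadjusted p under 0.05, a share near the 5.33% of all genes. It was Nab2, a corepressor of Egr1, at 0.63 ± 0.22 log2 units with an adjusted p of 0.852 in limma. Without Males 1, 15 of the 23 were positive (55% of all genes) and 0 had an unadjusted p under 0.05 (3.9% of all genes).

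In the 3 comparisons of cycle stages, a single gene of these related lists passed the adjusted threshold, which says nothing of the lists beside the 0.988% of all genes called in proestrus against metestrus. Gadd45b, a stress and activity gene with a part in DNA demethylation, was at 8.01 ± 0.39 in proestrus (n = 3). It was at 9.04 ± 0.23 over all metestrus libraries (n = 8). The fitted difference, which rests on the 3 metestrus libraries of batches 2 and 3, was -1.03 ± 0.25 log2 units. Its adjusted p was 0.0463 in limma. The ranges over all libraries of the 2 groups did not overlap, as held for 8.73% of all genes. The call was kept in 1 of 11 fits that left out a library, and over those 11 the difference ran from -1.13 to -0.86. Leaving out a metestrus library of batch 4 moves the error and not the difference. The call was lost in limma when the removed directions were counted (adjusted p = 0.125) and with the filter at 5 (0.0568). It was also lost without trend and robust prior (0.0626) and in batches 2 and 3 alone (0.226). Unadjusted p under 0.05 were found for 4 rapid, 2 delayed and 2 regulator genes in proestrus against metestrus, for 4, 2 and 2 in estrus against metestrus, and for 5, 2 and 1 in estrus against proestrus. Of the 32, 13 and 23 genes in these lists, such counts are read beside 13.1%, 11.3% and 14.5% of all genes in the same order of comparisons, and nothing particular to the lists is drawn from them.

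Divided by exon length (GENCODE M21, log2 per kilobase), Egr1 was the most abundant of the 10 on average over the libraries, at 9.40, followed by Arc at 9.14. Egr3 at 8.28, Nr4a1 at 8.22, Ier2 at 8.05, Egr4 at 7.90 and Nr4a2 at 7.47 came next. Egr2 at 4.83, Npas4 at 4.75 and Nr4a3 at 4.69 were the least abundant. The sources used here do not give whether the values had already been scaled by length, and the order may differ if they had.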

How the data were processed

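The 10 genes and the gene lists were chosen with earlier results of these data known. Per the submitters' processing notes, STAR, Salmon, edgeR and GRCm39 were used, without versions or order. The deposited values are log2 expression made by the authors, with the scaling and pseudocount not given in the sources used here. The base of the log follows from the powers of 2 of the values, which sum to 1.98e7 to 2.56e7 per library. Depth is unknown. Columns were matched to samples by name.

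All 19 libraries entered a limma model (version 3.58.1, R 4.3.3, trend and robust prior) with terms for group and batch. A gene was kept where 3 or more libraries reached 3.32, the log2 of 10, which left 20644 genes (94.9%), all 10 activity genes among them. Tests were two-sided, adjusted by Benjamini-Hochberg over all tested genes at 0.05. The model assumes 13 residual degrees of freedom and the values hold 11, which makes its p-values too small. With these counted, 75 in place of 204 genes passed in proestrus against metestrus, 0 in place of 18 in estrus against metestrus and 52 in place of 194 in estrus against proestrus. Genes named were the 10, the related genes past the threshold and the 5 most correlated genes, with exceptions stated. The fit was tested on simulated data with independent noise and planted differences larger than any fitted for the 10 genes. That test says nothing of the power at smaller differences. Alternatives were the filter, the batch term, centring, the variance prior, the removed directions, single batches, a replicate block and leaving out each library.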

Additional observations from a re-analysis of the deposited data

Results flagged for a closer look

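Npas4 in the library Metestrus 8, at 3.71, stood apart from the other 7 metestrus libraries, which lay between 6.01 and 7.92, and its gap to the nearest of them was 0.546 of the range of the group. It was the single such library among 30 groups of 4 to 10 libraries examined, and chance marks about 1 group in 20. The groups of 3 proestrus libraries were not examined. Metestrus 8 was also the lowest library for Egr1.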

How the results depend on the processing

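None of the 10 genes passed the adjusted threshold of limma in any alternative of the 4 comparisons, leaving out each library included. The lowest adjusted p reached was 0.0566, in estrus against metestrus without the batch term. The number of the 10 with an unadjusted p under 0.05 ran from 2 to 8 for males against metestrus, was 0 throughout for proestrus against metestrus, and ran from 0 to 3 for estrus against metestrus and from 0 to 2 for estrus against proestrus. A change of sign outside the left-out libraries was seen once, for Nr4a1 in estrus against proestrus, which was at 0.06 and at -0.0041 without the batch term. 

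Leaving out each library changed signs as follows, in log2 units. For males against metestrus, Nr4a3 ran from -0.028 to 0.73. For proestrus against metestrus, Egr2 ran from -0.21 to 0.71, Egr4 from -0.31 to 0.20, Ier2 from -0.59 to 0.65, Nr4a2 from -0.23 to 0.14 and Nr4a3 from -0.58 to 0.36. For estrus against metestrus, Ier2 ran from -0.42 to 0.81, Nr4a1 from -0.33 to 0.16 and Nr4a3 from -0.48 to 0.18. For estrus against proestrus, Ier2 ran from -0.23 to 0.60, Npas4 from -0.29 to 0.64, Nr4a1 from -0.10 to 0.36 and Nr4a3 from -0.53 to 0.40. 

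Counts over all genes moved more. For proestrus against metestrus 204 genes passed, 94 with the filter at 5, 1146 without the batch term, 75 with the removed directions counted, 1 in batches 2 and 3 alone and 68 to 190 without a library. For estrus against metestrus 18 passed, with 0, 899, 0, 0 and 0 to 56 in the same order and 49 without trend and robust prior. In the limma fits that gave 0, unadjusted p under 0.05 were found for 1819 genes with the filter at 5, 1715 with the removed directions counted and 1657 in batches 2 and 3 alone. For estrus against proestrus 194 passed, with 117 at the filter, 1.75% of all genes (against 0.94%) without the batch term, 52 with the removed directions, 0 in batches 2 and 3 (2249 at an unadjusted p under 0.05), 66 to 430 without a library and 310 after centring. For males against metestrus 5 passed, 10 without the batch term, 9 without trend and robust prior and 5 to 8 without a library. The cause was not tested. 

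With the title numbers of batch 4 as a replicate block, 0 of the 10 genes passed, 2 had an unadjusted p under 0.05, and 4 genes passed in all. Correlations of same-numbered libraries were 0.151, -0.00965, -0.2 and -0.1 for numbers 1 to 4, and number 1 alone matched best with its own. These values do not show pairing. Whether the numbers pair the libraries stays unknown, since directions of variation had been taken out before deposit. Depth is unknown, so what it limits cannot be given.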
